A study of Homo sapiens with 9 samples.

Results

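The retained-intron transcripts of U2OS cells were followed in nuclear RNA after knockdown of dyskerin or of GAR1, proteins of the H/ACA complex. The class was taken as all transcripts that GENCODE types as retained_intron, in protein-coding genes, with a mean of at least 20 reads over the 9 libraries. Transcripts whose exons overlap a snoRNA or scaRNA gene on the same strand were left out. Of 200401 transcripts in each table, 195887 were matched by identifier to GENCODE 44, and 27124 of these were retained-intron transcripts of 9319 protein-coding genes. No read was assigned to 2078 of them in any library, 17685 passed the minimum, and leaving out those with a snoRNA or scaRNA overlap, which came from 41 genes, gave 17584 members in 6175 genes. The mean of all 9 libraries chose the members, so their abundance is a description. The members just inside the minimum were PLD2-207 and TMEM243-208, with a mean of 20 reads each, and those just outside were NME6-219 and CPEB2-205, with 19.9.

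A retained-intron transcript is a non-coding product of a coding gene in which sequence that other transcripts splice out is kept. Many such RNAs stay in the nucleus, where some are spliced later and others are degraded, and in genes such as CLK1, OGT and MAT2A the removal of a detained intron is a known point of control. The H/ACA complex holds dyskerin, the pseudouridine synthase, with GAR1, NHP2 and NOP10. Guided by H/ACA small RNAs it converts uridines of ribosomal RNA and, with Cajal body RNAs, of spliceosomal small nuclear RNAs such as U2 to pseudouridine.

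All groups were cultures of U2OS, an osteosarcoma line, collected 48 h after transfection with siRNA at 15 nM. The group named siControl received a control siRNA, siDyskerin one that targets dyskerin, and siGAR1 one that targets GAR1, and each had 3 biological replicates. Nuclei were separated from cytoplasm before RNA extraction, ribosomal RNA was depleted, and total RNA libraries that keep the strand were sequenced as paired ends. The reads given per transcript summed to 48838756 to 90698675 per library. A read may be counted in more than 1 transcript, as described below, and percents of reads in this paragraph are of sums of this kind. The mesenchymal markers VIM (2288 to 2943 TPM) and SPARC (614 to 774 TPM) were high in every library. COL1A2 reached at most 0.0353 TPM, and the hemoglobin genes HBA1 and HBB were at 0. Of 5 epithelial markers, EPCAM and CDH1 lay between 1.00 and 2.61 TPM and KRT19 reached at most 0.140 TPM, while KRT8 (332 to 517 TPM) and KRT18 (171 to 346 TPM) were high in every library. KRT8 and KRT18 were higher in each siDyskerin and siGAR1 library than in any siControl library, and their part in the results was not tested. Mitochondrially encoded mRNAs, a sign of cytoplasm left in the nuclear fraction, took 0.0881 to 0.129% of the reads. They were lowest in siDyskerin, with 0.0881, 0.0919 and 0.102%. The nuclear RNA MALAT1 took 0.0716 to 0.0979% of the reads in siControl, 0.0818 to 0.0916% in siDyskerin and 0.0780 to 0.123% in siGAR1. NEAT1, also nuclear, took 0.0172 to 0.0214%, 0.0182 to 0.0222% and 0.0170 to 0.0257% in the same order. Both were highest in siGAR1 replicates 1 and 3, with 0.101 and 0.123% for MALAT1 and 0.0252 and 0.0257% for NEAT1. The part of these RNAs in the results below was not tested.

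DKC1, which encodes dyskerin, had 12236, 13412 and 12406 normalized reads in siControl, 1785, 1809 and 1841 in siDyskerin and 15270, 14710 and 13665 in siGAR1. Its fold change after siDyskerin was -2.82 on the log2 scale (standard error 0.07, adjusted p = 1.54e-11, edgeR quasi-likelihood test), which left 14.2% of the control level. GAR1 had 589, 595 and 671 normalized reads in siControl, 709, 719 and 720 in siDyskerin and 91.8, 83.7 and 117 in siGAR1. It changed by -2.68 after siGAR1 (standard error 0.12, adjusted p = 6.08e-08, edgeR), to 15.6% of the control level. Neither gene passed the test under the other siRNA, with 0.19 for DKC1 after siGAR1 (edgeR adjusted p = 0.0828) and 0.21 for GAR1 after siDyskerin (edgeR adjusted p = 0.231). Each targeted gene was therefore low in its own group and in no other.

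The members were short and mostly exonic. Their median length was 811 bases, and at the median 34.9% of a member's bases lay outside every exon of the coding transcripts of its gene. At least 50% of the bases were intronic in this sense in 5135 members. A complete intron of a coding transcript was held within an exon by 5688 members, of which 3579 held exactly 1 and 2109 held 2 or more. The other 11896 members ran from an exon into an intron without crossing it, lay within an intron, or differed from the coding transcripts in other ways. Exons of another gene on the same strand overlapped 1455 members.

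The introns held whole by a member differed in size and composition from the other introns of the member genes. Only introns of transcripts marked as canonical in GENCODE were compared, and those found only in other coding transcripts were left out. The 5696 canonical introns held whole, in 2584 genes, had a median length of 256.5 bases (interquartile range 120 to 599). The other 72373 canonical introns had a median of 1509 bases (507 to 3803). Of the retained introns 40.7% were shorter than 200 bases, against 12.5% of the others. Introns of 5000 bases or more made up 0.193% of the retained set and 19.3% of the others. Median GC content was 55.5% in the retained introns and 43.0% in the others. The ends were alike, with GT at the start and AG at the end in 98.7% and 99.1%, and a mean of 67.2% and 67.5% pyrimidines in the last 24 bases. The start GTAAGT was less frequent in the retained set, with 8.73% against 14.1%, while GTGAGT was found in 14.8% and 13.4%. The start motif of introns removed by the minor, U12-dependent spliceosome was present in 28 retained introns (0.492%) and 286 others (0.395%). Membership itself depends on what was annotated and on read number, so these figures describe the annotated class and carry no test.

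**Figure D1:**
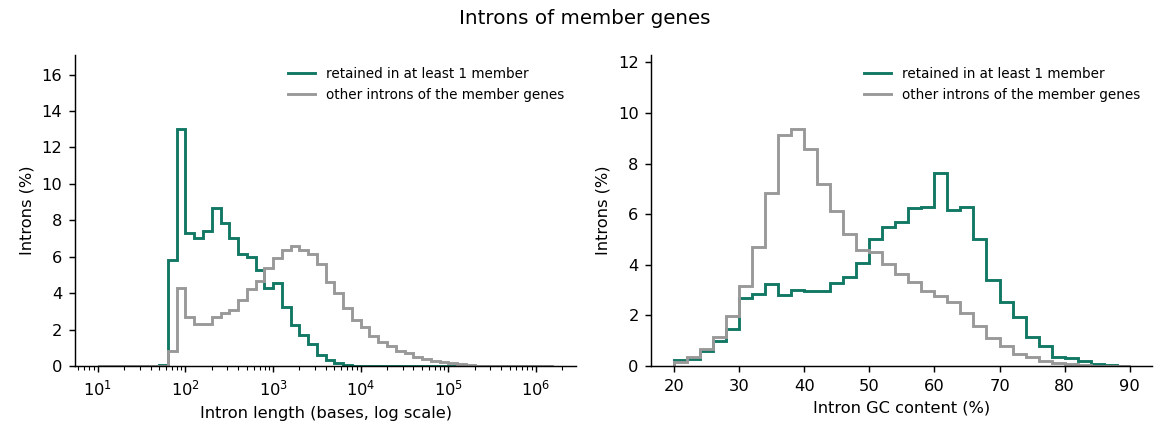
Length (log10 of bases, left) and GC content (percent, right) of introns held whole by at least 1 member and of the other introns of the member genes, as the percent of introns in each bin. Both sets hold introns of canonical transcripts only. The retained set is centred on a median of 256.5 bases and 55.5% GC, the other introns on 1509 bases and 43.0%.

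Splice sites of the introns that matter below are given from the GRCh38 sequence on the strand of the gene, 5′ to 3′. A 5′ site is printed with 3 exon and 12 intron bases and the first 2 intron bases in capitals, a 3′ site with 24 intron and 3 exon bases and the last 2 intron bases in capitals. The first set comes from genes known for detained introns. For each gene it shows the intron held whole by the member with the most reads, which need not be the intron known to be detained. CLK1-210 holds intron 3 of 12 of CLK1 (chr2:200860216-200861237, 1022 bases), CLK4-206 intron 3 of 12 of CLK4 (chr5:178617435-178618555, 1121 bases), OGT-210 intron 4 of 21 of OGT (chrX:71544636-71547906, 3271 bases) and MAT2A-205 intron 6 of 8 of MAT2A (chr2:85542374-85542564, 191 bases). CLK1 and CLK4 lie on the minus strand, OGT and MAT2A on the plus strand.
CLK1-210, 5′ site: gggGTatgaacgttt
CLK1-210, 3′ site: gtgccgcccacttgacgtttccAGaag
CLK4-206, 5′ site: tcgGTatgattggtt
CLK4-206, 3′ site: ggtgctgcccacttgccgttccAGaag
OGT-210, 5′ site: aagGTaggtgtttga
OGT-210, 3′ site: cttctttcattaacccctcctaAGgca
MAT2A-205, 5′ site: cagGTaatgtcattt
MAT2A-205, 3′ site: gtaacttaaatcctgtaatttcAGggt

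The second set shows retained introns with the U12-type start, where the capitals of the 5′ site mark the 8 bases of that motif, searched at the first intron base only. These are the 4 with the most reads, chosen after their values were seen: intron 14 of 17 of NOL11 (chr17:67738356-67738931, plus strand), intron 2 of 3 of NCBP2 (chr3:196937649-196939250, minus), intron 5 of 9 of PSMA1 (chr11:14513888-14514402, minus) and intron 5 of 11 of ZDHHC5 (chr11:57690204-57690334, plus).
NOL11-209, 5′ site: actGTATCCTTtgac
NCBP2-209, 5′ site: ggaGTATCCTTccca
PSMA1-207, 5′ site: gcaGTATCCTTttta
ZDHHC5-207, 5′ site: cacGTATCCTTcaag

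The third set shows the splice sites that members with changed usage read through, described with their values below. PPIL2-211 holds introns 2 and 3 of 19 of PPIL2 whole, of 603 and 385 bases (chr22:21669963-21670565 and chr22:21670612-21670996). The others cross a 5′ splice site and end within the intron: DKC1-207 in intron 2 of 14 (chrX:154764967-154765443, plus strand), ZNF451-207 in intron 11 of 14 (chr6:57150863-57152220, plus), HEXD-214 in intron 2 of 12 (chr17:82419884-82424393, plus), MYL12A-212 in intron 1 of 3 (chr18:3247910-3253232, plus) and CBX6-203 in intron 4 of 4 (chr22:38867202-38871479, minus). NUMBL-205 crosses the 5′ site of intron 3 of 9 (chr19:40682969-40684416, minus) and the 3′ site of intron 2.
PPIL2-211, intron 2, 5′ site: cagGTaaggcatgca
PPIL2-211, intron 3, 5′ site: cagGTaagagttttg
DKC1-207, 5′ site: gccGTgagtagtaat
ZNF451-207, 5′ site: aagGTacggttaata
HEXD-214, 5′ site: gagGTaaggactccc
MYL12A-212, 5′ site: cggGTgagtggcgct
CBX6-203, 5′ site: aagGTaacctggccc
NUMBL-205, 5′ site: aggGTgagtgggcgc

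The share of a gene is given as the percent of its reads that lay in its members. The reads of a gene are those of its matched transcripts without a snoRNA or scaRNA overlap. A share is raised where other transcripts of the gene were left out. Reads in the deposited tables appeared to be counted in each transcript they fit: in 150 pairs from 128 genes where a member is nested in a longer transcript of its gene, the member never had more reads than the longer transcript in any library. A share is therefore not read as the percent of RNA molecules with the intron, and exonic reads count towards it. Of the 6175 genes, 2166 had 1 member, 2954 had 2 to 4 and 1055 had 5 or more, with 25 at most. The median share was 13.7% (interquartile range 6.24 to 24.6%), 210 genes had a share of 50% or more, and 1238 had less than 5%. In 8 genes, among them RPS27 and UBE2T, every transcript so counted was a member and the share is fixed at 100%. These genes stay in the counts and means of shares. The median member had a mean of 136 reads, and 1521 members had 1000 or more.

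The members with the most reads belonged to highly expressed genes of metabolism, the cytoskeleton and translation. The members of GAPDH, a glycolytic enzyme, had a mean of 216523 reads and a share of 35.3%. The members of PKM and ENO1, which act further down in glycolysis, had 79795 and 61157 reads and shares of 15.0% and 40.9%. HNRNPU, a nuclear matrix RNA-binding protein, had 76192 reads in members and a share of 26.4%, ACTB (beta-actin) 73370 and 33.1%, and the ribosomal stalk protein RPLP0 60797 and 26.3%. These shares hardly moved between libraries, as in GAPDH, where they were 35.1, 35.3 and 35.1% in siControl, 35.4, 35.5 and 35.3% in siDyskerin and 35.7, 35.3 and 35.3% in siGAR1.

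Over the whole class, the retained-intron share differed little between the 3 groups and was highest after siGAR1. The mean share over the 6175 genes was 17.260, 17.265 and 17.263% in siControl, 17.373, 17.272 and 17.275% in siDyskerin and 17.507, 17.359 and 17.460% in siGAR1. All 3 siGAR1 libraries lay above all 3 siControl libraries, by 0.179 percentage points in the mean (exact two-sided permutation test, p = 0.10, the smallest that 3 against 3 allows, and 0.15 adjusted over the 3 comparisons). The siDyskerin libraries also lay above siControl, by 0.0439 points (exact p = 0.10, adjusted 0.15), of which most came from siDyskerin replicate 1, since the difference was 0.0108 points without it. The knockdowns overlapped, with a difference of -0.135 points for siDyskerin minus siGAR1 (exact p = 0.20, adjusted 0.20). In this design no such comparison can pass 0.05, and a p of this size does not show that the groups were alike. The libraries with the highest shares, siGAR1 replicates 1 and 3, were also those with the most MALAT1 and NEAT1, and a link was not tested.

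The siGAR1 difference kept its sign when members were weighted or counted otherwise, but shrank when genes were pooled by reads. With the reads of all genes summed before the share was taken, it was 0.0334 points and the groups overlapped, while the siDyskerin difference turned to -0.102 points. From TPM in place of reads the differences were 0.204 points after siGAR1, with the groups apart, and 0.0107 points after siDyskerin, with the groups overlapping. The siDyskerin libraries also overlapped siControl with the median in place of the mean and with members of at least 100 reads. Nuclear RNA of whole cultures was measured, so a change in the number of cells with a retained intron and a change in its amount per cell cannot be told apart.

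**Figure D2:**
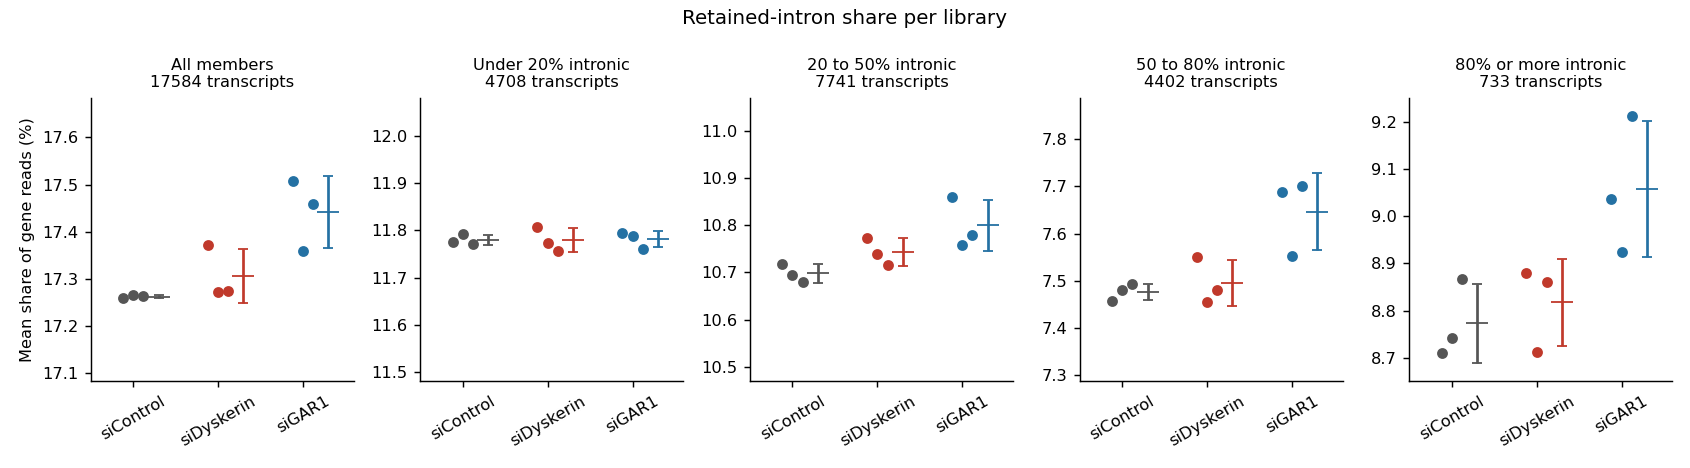
Mean share of gene reads in retained-intron members (percent) per library, for all 17584 members and for sets of members, with bars for the mean and SD of the 3 libraries of a group. The vertical axes do not start at 0. The siGAR1 libraries lie above siControl in the panel of all members, by 0.179 points in the mean.

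Members with more intronic sequence showed the larger differences after siGAR1. In the 4708 members with under 20% intronic bases the mean share was 11.78, 11.79 and 11.77% in siControl and 11.80, 11.79 and 11.76% in siGAR1, a difference of 0.00211 points with overlapping groups (exact permutation p = 0.9). The 7741 members with 20 to 50% differed by 0.102 points, the 4402 with 50 to 80% by 0.170 points and the 733 with 80% or more by 0.285 points, and in these 3 sets every siGAR1 library lay above every siControl library (exact p = 0.10 each). In the last set the shares were 8.71, 8.74 and 8.87% in siControl, 8.88, 8.71 and 8.86% in siDyskerin and 9.04, 8.92 and 9.21% in siGAR1. The siDyskerin differences in the 4 sets were -5.24e-05, 0.0450, 0.0191 and 0.0448 points, and the groups overlapped in each. For the 5688 members that hold a whole intron the siGAR1 difference was 0.136 points, with the groups apart. These sets, and those that follow, were chosen after the data were seen and share libraries, so they are not separate evidence.

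Members were also split by GC content and by length into 3 sets of like size each. Those of lowest, middle and highest GC differed by 0.167, 0.147 and 0.0919 points between siGAR1 and siControl, with the groups apart in each. The shortest, middle and longest members differed by 0.0976, 0.0954 and 0.128 points, and the groups overlapped in the last. For the 16129 members without another gene on their strand the difference was 0.173 points, with the groups apart. Coding transcripts moved the other way, since the share of protein_coding transcripts was 0.192 points lower in siGAR1 than in siControl with the groups apart. Shares within a gene add to a fixed total, so this fall is not separate evidence. Transcripts typed as targets of nonsense-mediated decay differed by 0.00217 points and those of coding genes without a defined coding sequence by 0.102 points, both with overlapping groups.

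Most genes changed by less than 1 percentage point. The absolute change was under 1 point in 88.8% of genes after siDyskerin and in 87.3% after siGAR1, and it reached 5 points in 15 and 13 genes. The median change was 0.0229 points after siDyskerin and 0.123 points after siGAR1, where the median SD of a gene over the 3 control libraries was 0.364 points. The change was above 0 in 52.9% of genes after siDyskerin and in 63.7% after siGAR1. Between the knockdowns the median difference was -0.0990 points, and 38.5% of genes were higher in siDyskerin.

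The groups did not overlap in 443 genes that were higher and 320 that were lower in siDyskerin than in siControl, or 7.17% and 5.18% of the 6175 genes. Over all 27954 pairs of a gene and a transcript type, 5.97% were apart in each direction in that comparison. After siGAR1, 725 genes (11.7%) were higher and 219 (3.55%) lower with the groups apart, against a background of 7.24% and 7.02%. Between the knockdowns, 237 genes (3.84%) were higher in siDyskerin and 566 (9.17%) lower, against 6.31% and 6.42%. The member shares thus leaned upward after siGAR1. A rise of any type lowers the shares of others in its gene, so the background over all types is near balance by construction. It does not show that the lean is particular to the members. The comparisons share control or knockdown libraries, so their counts are not independent.

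**Figure D3:**
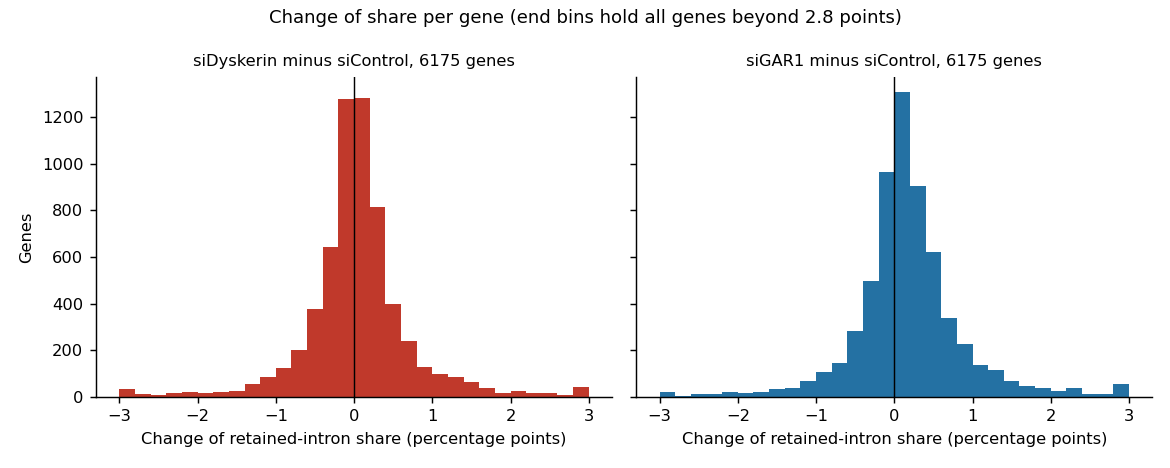
Number of genes by change of the retained-intron share (percentage points, knockdown mean minus siControl mean) for the 6175 genes, after siDyskerin (left) and siGAR1 (right). End bins hold all genes beyond 2.8 points. Both distributions are centred near 0, with medians of 0.0229 and 0.123 points.

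Few single genes passed a test of usage, that is, of retained-intron reads relative to the change of the gene as a whole. The test per gene also takes retained-intron transcripts under the read minimum, while shares take members only. With edgeR's diffSpliceDGE at a Benjamini-Hochberg adjusted p under 0.01, 1 of 6164 genes tested rose after siDyskerin and 1 after siGAR1, C7orf50 in both, and 2 were lower in siDyskerin than in siGAR1, CHSY1 and ZNF451, of which CHSY1 depends on the read minimum as described below. Over all 29136 pairs of gene and type 0.0103%, 0.00686% and 0.0206% were called in the 3 comparisons. Usage coefficients were near 0 for the class, with medians of 0.0035 after siDyskerin and 0.0150 after siGAR1 on the log2 scale. They were above 0 in 53.6% and 64.1% of the genes, against 50.1% and 50.7% of all pairs. Usage is relative to the gene, so the figures for all pairs are near balance by construction.

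C7orf50, a gene of chromosome 7 whose protein is little characterized, had its only member, C7orf50-206, at 6.23, 6.20 and 5.54% of its reads in siControl. The share was 9.85, 10.3 and 10.0% in siDyskerin and 12.4, 12.5 and 10.7% in siGAR1, so both knockdowns lay above every control library. Usage of C7orf50-206 rose by 0.74 after siDyskerin (adjusted p = 7.00e-09, edgeR per transcript) and by 0.98 after siGAR1 (adjusted p = 2.41e-16) on the log2 scale. The reads of C7orf50 as a whole fell by 0.41 and 0.45 (adjusted p = 0.000635 and 0.000615), while those of the member rose by 0.34 (standard error 0.09, adjusted p = 0.00789) and 0.54 (standard error 0.09, adjusted p = 0.000114). The member has 2 exons, lies at chr7:1024502-1028352 on the minus strand and is 96.9% intronic. It crosses no splice site of an intron of the canonical transcript, and introns found only in other coding transcripts were not searched. It was called in both knockdowns under every alternative tried.

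CHSY1 and ZNF451 differed between the knockdowns. CHSY1 encodes a chondroitin synthase, and its member CHSY1-205 (chr15:101187541-101189567, minus strand) lies wholly within an intron. Its share of CHSY1 reads was 0.678, 0.695 and 0.758% in siControl, 0.477, 0.515 and 0.475% in siDyskerin and 1.62, 1.32 and 1.81% in siGAR1, with no overlap between any groups. The coefficient of CHSY1-205 was -1.67, while CHSY1 itself was 0.72 higher in siDyskerin than in siGAR1. The member had a mean of 20.8 reads over all libraries and 16.8 without siGAR1, so it passed the minimum of 20 only through the group where it was high. Its difference from siGAR1 is therefore given as a description, with no test. In the test per gene the call for CHSY1 was also lost without siDyskerin replicate 1 or 2 and without siGAR1 replicate 1 or 3.

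ZNF451, a SUMO ligase with zinc fingers, had 3 members with 11.02, 11.8 and 11.2% of its reads in siControl, 9.72, 9.72 and 9.45% in siDyskerin and 13.5, 13.7 and 13.4% in siGAR1. The 3 groups were apart, with siGAR1 highest. The usage coefficient of ZNF451 in siDyskerin against siGAR1 was -0.49 (adjusted p = 0.00449, edgeR), and in each knockdown against siControl it was -0.24 and 0.26 without passing (adjusted p = 1 in both). ZNF451-207, which reads through the 5′ site printed above, had a coefficient of -0.46 (adjusted p = 0.00314). The gene call was lost with a replicate block (adjusted p = 0.0234) and with limma voom (0.0135), and the transcript call with limma voom (0.0564). Leaving out any 1 of the 6 knockdown libraries ended the gene call, with adjusted p-values of 0.0290 to 0.124, and the transcript call, with 0.0194 to 0.0980.

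**Figure D4:**
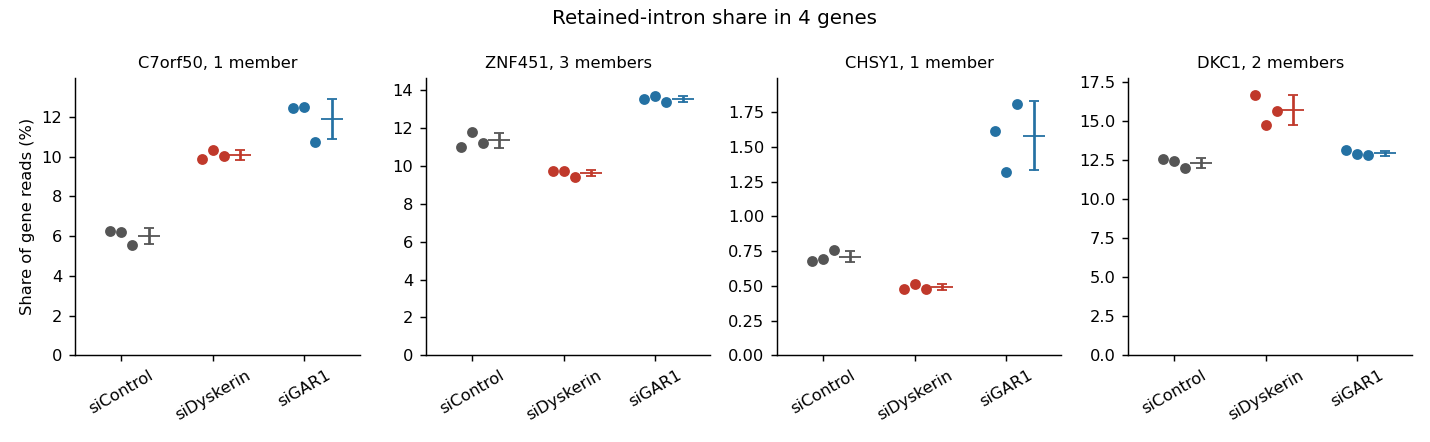
Share of gene reads in retained-intron members (percent) per library for 4 genes, with points for libraries and bars for the mean and SD of each group. C7orf50 lies at 5.54 to 6.23% in siControl and at 9.85 to 12.5% in the knockdowns, and ZNF451 lies lowest in siDyskerin and highest in siGAR1.

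Tested as single transcripts, 3 of 17576 members passed after siDyskerin, 6 after siGAR1 and 3, CHSY1-205 included, between the knockdowns, where 0.0327%, 0.0471% and 0.0269% of all 103952 transcripts were called. After siDyskerin DKC1-207 rose relative to its gene, from 3.88, 3.598 and 3.21% of DKC1 reads in siControl to 7.08, 5.52 and 6.07%, with 4.15, 4.08 and 3.93% in siGAR1. Its usage coefficient was 0.80 (adjusted p = 8.14e-07, edgeR), and without siDyskerin replicate 1, the library with the highest share, 0.68 (adjusted p = 0.0163). In siDyskerin against siGAR1 the coefficient of DKC1-207 was 0.61 (adjusted p = 0.00237), a call lost without siDyskerin replicate 1 (0.865) or 3 (0.0316) and without siGAR1 replicate 1 (0.0121) or 2 (0.0186). The reads of DKC1-207 fell by 2.01 on the log2 scale (standard error 0.11), while DKC1 itself fell by 2.82. The other DKC1 member, DKC1-206, fell by 2.70 and had 8.67, 8.86 and 8.75% of the reads in siControl and 9.56, 9.21 and 9.58% in siDyskerin, with no usage call (adjusted p = 1).

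PSPC1-207, a transcript within an intron of the paraspeckle gene PSPC1, fell in usage after siDyskerin by 0.79 on the log2 scale (adjusted p = 0.00324, edgeR). Its share was 1.63, 1.78 and 2.19% in siControl, 1.12, 0.975 and 1.10% in siDyskerin and 1.29, 0.867 and 1.38% in siGAR1. The call was lost without siControl replicate 2 (adjusted p = 0.0292) or 3 (0.252) and without siDyskerin replicate 1 (0.0300), 2 (0.231) or 3 (0.0274).

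After siGAR1, MYL12A-212 fell and the others called rose. MYL12A, a regulatory light chain of myosin, had MYL12A-212 at 2.34, 2.55 and 2.49% of its reads in siControl, 1.92, 1.93 and 1.99% in siDyskerin and 1.51, 1.56 and 1.59% in siGAR1. Its usage changed by -0.66 (adjusted p = 1.92e-07, edgeR), and the call held under every alternative tried. The gene rose by 0.46 (adjusted p = 0.000594), while MYL12A-212 itself changed by -0.19 (adjusted p = 0.174) in level.

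CBX6, a Polycomb chromobox protein, had CBX6-203 at 4.11, 5.01 and 4.42% in siControl, 6.36, 6.57 and 6.63% in siDyskerin and 7.09, 6.15 and 7.39% in siGAR1, so both knockdowns lay above siControl. Usage of CBX6-203 rose by 0.61 after siGAR1 (adjusted p = 0.00340, edgeR) and by 0.54 after siDyskerin without passing 0.01 (adjusted p = 0.0255). The reads of CBX6 fell by 0.92 after siGAR1 and 0.94 after siDyskerin, and its member fell less. The siGAR1 call for CBX6-203 was lost without siControl replicate 1 (adjusted p = 0.231) or 3 (0.0504) and without siGAR1 replicate 1 (0.108) or 3 (0.103).

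NUMBL, a Notch pathway adaptor related to NUMB, had NUMBL-205 at 3.54, 3.74 and 3.18% in siControl, 5.51, 4.75 and 6.24% in siDyskerin and 6.37, 6.39 and 8.49% in siGAR1 (usage 1.01 after siGAR1, edgeR adjusted p = 0.00251). HEXD, a hexosaminidase, had HEXD-214 at 5.63, 7.06 and 6.24% in siControl, 5.60, 7.92 and 5.10% in siDyskerin and 12.02, 12.6 and 13.8% in siGAR1 (usage 1.01, adjusted p = 0.00430). PPIL2, a cyclophilin of the spliceosome, had PPIL2-211 at 0.409, 0.305 and 0.323% in siControl, 0.595, 0.669 and 0.340% in siDyskerin and 0.724, 0.708 and 0.891% in siGAR1 (usage 1.11, adjusted p = 0.00469). In these 3 transcripts every siGAR1 library lay above every siControl library, and HEXD-214 in siDyskerin spanned its control values. Their mean reads were 47.9, 40.7 and 30.2, and leaving out any 1 siControl or siGAR1 library ended each of these calls, with adjusted p-values of up to 0.161 for NUMBL-205 (without siGAR1 replicate 3), 0.120 for HEXD-214 (without siControl replicate 1) and 0.182 for PPIL2-211 (without siControl replicate 2). The HEXD-214 call was also lost without siDyskerin replicate 3 (adjusted p = 0.0168). Exons of another gene on the strand overlap PPIL2-211.

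In genes with classical detained introns the shares changed by little and no usage test was passed. CLK1, a kinase of SR splicing factors, had 39.7, 40.0 and 39.8% of its reads in members in siControl, 40.4, 38.9 and 39.8% in siDyskerin and 39.7, 40.1 and 40.9% in siGAR1. CLK1-210, with the intron printed above, had 16.5, 17.0 and 16.3%, then 16.5, 16.8 and 16.4%, then 16.2, 16.7 and 16.6%. CLK4, its close relative, had 49.6, 50.4 and 52.5% in siControl, 51.1, 50.4 and 50.5% in siDyskerin while siGAR1 gave 51.0, 50.4 and 49.0%. In both kinases the ranges of the 3 groups overlapped.

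OGT, the O-GlcNAc transferase, had 40.3, 40.6 and 41.0% in siControl, 41.4, 40.9 and 42.1% in siDyskerin and 40.8, 40.5 and 41.1% in siGAR1, again overlapping, with OGT-210 alone at 36.0 to 37.7%. MAT2A, which makes S-adenosylmethionine, had 31.2, 30.8 and 31.0% in siControl, 31.8, 31.8 and 31.4% in siDyskerin and 32.1, 31.8 and 31.8% in siGAR1. Its 2 knockdown groups lay above siControl, by less than 1 point, and its usage did not pass (coefficients of 0.03 and 0.04, edgeR adjusted p = 1 in both). The members with U12-type introns lay in narrow ranges: NOL11-209 lay at 11.7 to 12.9%, NCBP2-209 at 17.5 to 18.3%, PSMA1-207 at 8.98 to 9.95% and ZDHHC5-207 at 23.7 to 24.5% of their genes over the 9 libraries.

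Genes of the complex and of speckles were mixed. DKC1 had 12.5, 12.5 and 11.96% of its reads in members in siControl, 16.6, 14.7 and 15.7% in siDyskerin and 13.1, 12.9 and 12.8% in siGAR1, so every siDyskerin library, where few reads were left, lay above the others, while usage of its retained-intron transcripts did not pass (edgeR adjusted p = 1). GAR1 had 31.9, 35.3 and 30.5% of its reads in members in siControl, 34.6, 33.2 and 34.7% in siDyskerin and 27.3, 27.7 and 37.6% in siGAR1, where few reads were left. NHP2 lay at 16.0 to 16.7% throughout, and NOP10 has no member. SRRM2, a scaffold of nuclear speckles, had 16.0, 15.9 and 15.9% in siControl, 16.4, 16.0 and 16.0% in siDyskerin and 15.1, 15.7 and 15.9% in siGAR1, so siGAR1 lay lowest by a narrow margin. SRSF2, an SR protein of speckles, had 16.9, 17.5 and 17.1% in siControl, 16.0, 16.4 and 16.8% in siDyskerin and 18.2, 17.1 and 17.7% in siGAR1, so siDyskerin lay below siControl. The usage test was also not passed by SRSF2, SRRM2, GAR1, NHP2, the U2 protein SF3B1, the elongation factor EEF2 or ACTB.

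By function, 15 lists of genes were examined, and no list gene passed the usage test in any comparison. That test was sparing, so not passing it does not show that a share was unchanged. SR proteins had 41 members in 11 of 14 listed genes with a median share of 17.8% in siControl, 18.0% in siDyskerin and 17.7% in siGAR1. The 7 genes with regulated detained introns had 34.2, 34.0 and 33.9%, and the 19 genes of hnRNP proteins 7.12, 7.25 and 7.19%. The 17 genes of speckle proteins had 19.1, 19.8 and 19.8%. Among them SRRM1, an SR-related matrix protein, had 11.2, 11.97 and 11.4% in siControl, 13.6, 13.2 and 12.7% in siDyskerin and 12.2, 11.8 and 10.4% in siGAR1, with siDyskerin above siControl but no usage call (adjusted p = 1).

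The list counts of genes with groups apart after siGAR1 are read against 11.7% higher and 3.55% lower among all member genes. Of 65 genes of cytosolic ribosomal proteins, the largest list, 15 were higher and 0 lower, and 7 were higher and 1 lower after siDyskerin. Of 19 genes of hnRNP proteins 5 were higher and 3 lower after siGAR1, and of 17 genes of speckle proteins 2 were higher and 1 lower. SR proteins had 0 and 0 of 11, and genes with regulated detained introns 1 and 0 of 7. RPSA, of the small ribosomal subunit, had 25.2, 24.8 and 25.5% in siControl, 25.2, 26.3 and 25.5% in siDyskerin and 27.7, 27.3 and 26.0% in siGAR1. No ribosomal protein gene passed the usage test (edgeR adjusted p = 1 for RPSA in each comparison). Of 38 genes of translation factors, 5 were higher and 2 lower after siGAR1. EIF3J, a subunit loosely bound to initiation factor eIF3, had 4.84, 4.55 and 4.77% in siControl, 5.18, 5.92 and 5.41% in siDyskerin and 5.44, 5.92 and 7.01% in siGAR1. Each EIF3J knockdown library lay above siControl, without a usage call (adjusted p = 1).

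Of 14 genes of the U2 snRNP and U2AF, 3 were higher and 0 lower in siGAR1, among them SF3B6, which binds the branch point region, with 29.2, 29.0 and 29.6% in siControl, 29.5, 30.2 and 29.1% in siDyskerin and 32.5, 30.9 and 30.05% in siGAR1. Of 16 genes of U1, U4/U6.U5 and Sm proteins 3 were higher and 0 lower, and of 6 genes of the minor spliceosome 2 and 0. Of the remaining lists, 1 gene was higher and 0 lower in siGAR1 for each of the kinases of SR proteins (7 genes with members), the H/ACA complex and assembly factors (6), tRNA synthetases (18) and ATF4 and unfolded protein response targets (10). The nuclear exosome and its cofactors (16 genes) had 1 and 1, and DNA repair and checkpoint genes (30) had 2 and 0. With so few genes in a list, nothing particular to a list is read from these counts.

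Most members called in level changed the same way as their genes. The level of a gene sums its transcripts, the member included, and reads appeared to be counted in each transcript they fit. Likeness of member and gene is therefore partly built in. At an adjusted p under 0.01 and an absolute log2 fold change above 1 (edgeR quasi-likelihood test), 23 members were higher and 31 lower after siDyskerin, where 0.31% and 0.245% of 108597 transcripts tested were called, or 0.555% in all. After siGAR1 6 were higher and 5 lower, against 0.129% and 0.0589% of all, together 0.188%. In siDyskerin against siGAR1 13 were higher and 28 lower, against 0.158% and 0.217%, together 0.376%. Of the 23 and 31 members called after siDyskerin, the gene as a whole passed the same way in 21 and 30, and the median log2 change was 1.11 for the higher members and 1.06 for their genes, and -1.12 and -1.11 for the lower. Of the 6 and 5 after siGAR1 the gene passed the same way in 4 and 5. There the median was 1.12 for the higher members and 0.62 for their genes, and -1.37 and -1.26 for the lower. Of the 13 and 28 between the knockdowns the gene passed the same way in 12 and 24. Without the group where they were highest, 7 of the 54 members called after siDyskerin, 2 of the 11 after siGAR1 and 9 of the 41 between the knockdowns had a mean under 20 reads, so their membership rests on that group and the counts support nothing on their own. The examples below were chosen after their values were seen.

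Members that fell after siDyskerin belonged to 17 genes. THBS1, which encodes the matrix protein thrombospondin 1, had 6 of them, and THBS1-204 had 2692, 2717 and 2735 normalized reads in siControl, 1249, 1165 and 1349 in siDyskerin and 2690, 2533 and 2370 in siGAR1. It fell by 1.12 (standard error 0.07, adjusted p = 6.60e-12, edgeR) and THBS1 by 1.09, and its share stayed at 7.57 to 8.36%. SLC25A22, a mitochondrial glutamate carrier, had 6 others, among them SLC25A22-204 with 66.2, 47.6 and 44.6 normalized reads in siControl, 23.6, 10.5 and 22.9 in siDyskerin and 52.9, 50.4 and 40.1 in siGAR1. The siDyskerin libraries lay below all others in both. Without siControl, SLC25A22-205 and SLC25A22-208 had a mean of 17.7 reads each, SLC25A22-206 of 16.5 and SLC25A22-220 of 18.8. These SLC25A22 members passed the read minimum only through siControl, so their falls are descriptions.

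Members called higher after siDyskerin belonged to 14 genes. SPP1-206, of the bone matrix protein osteopontin, had 9.89, 24.3 and 12.4 normalized reads in siControl, 41.5, 44.7 and 45.9 in siDyskerin and 10.2, 24.2 and 17.5 in siGAR1, with a log2 difference of 1.49 after siDyskerin, where SPP1 rose by 1.51. SYNE1-231, of the nuclear envelope protein nesprin 1, had 6.85, 13.5 and 16.1 in siControl, 30.2, 39.4 and 40.2 in siDyskerin and 25.04, 30.3 and 25.1 in siGAR1. The log2 differences of SYNE1-231 were 1.65 after siDyskerin and 1.21 after siGAR1, where SYNE1 rose by 0.82 and 0.44, and its usage did not pass (adjusted p = 1 in both). Without siDyskerin, SPP1-206 had a mean of 16.5 reads and SYNE1-231 of 19, so both passed the minimum only through that group and their differences are descriptions.

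Among the members called after siGAR1 those of GAR1 changed the most, GAR1-204 with -2.83 and GAR1-203 with -2.63, where GAR1 itself had -2.68. MFAP1-202, of a spliceosome-associated protein, had 120, 152 and 129 normalized reads in siControl, 122, 157 and 145 in siDyskerin and 59.4, 46.4 and 70.2 in siGAR1, and changed by -1.2003 where MFAP1 changed by -1.02. CFDP1-202, of a chromatin protein, had 30.4, 45.8 and 38.4 in siControl, 43.4, 54.3 and 51.6 in siDyskerin and 87.2, 82.7 and 87.7 in siGAR1, and rose by 1.18 where CFDP1 rose by 0.93. CD44-237, of the hyaluronan receptor CD44, had 24.4, 41.3 and 44.6 in siControl, 64.1, 72.7 and 58.8 in siDyskerin and 77.9, 84.7 and 70.2 in siGAR1. CD44-237 rose by 1.13 after siGAR1 while CD44 did not pass (0.23, edgeR adjusted p = 0.0643), and its usage came to an adjusted p of 0.0210.

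**Figure D5:**
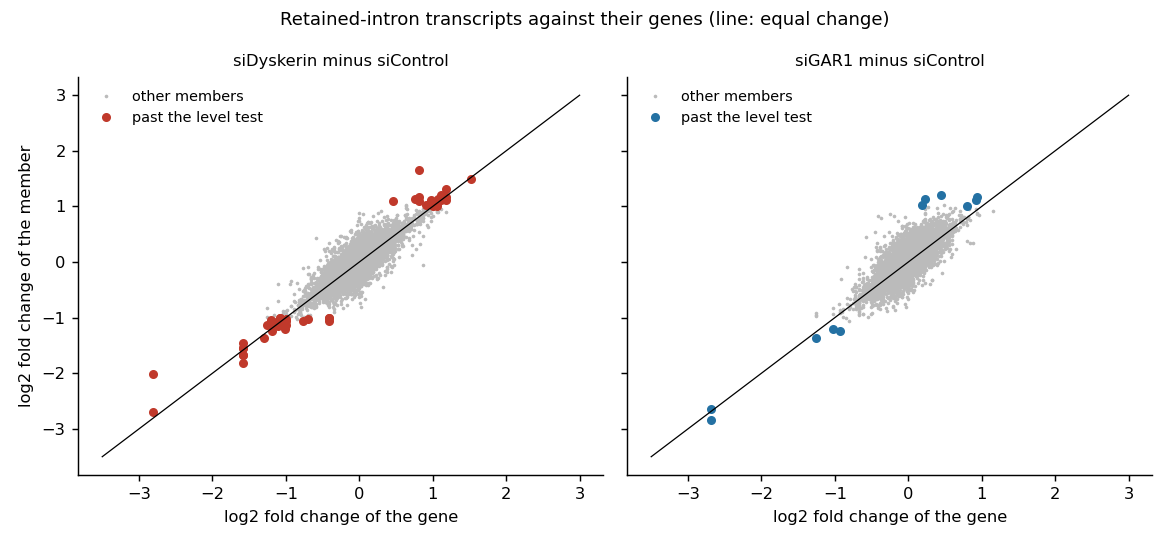
Log2 fold change of each member against the log2 fold change of its gene, after siDyskerin (left) and siGAR1 (right), with members called in colour and a line of equal change. The called members after siDyskerin lie near the line, with median changes of 1.11 for higher members and 1.06 for their genes, and those higher after siGAR1 lie above it, with 1.12 and 0.62.

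With no fold threshold 389 members were higher and 440 lower after siDyskerin, or 829 in all, where 3.26% and 3.18% of all transcripts tested passed, together 6.44%. After siGAR1 270 were higher and 253 lower, against 2.02% and 2.05% of all, together 4.07%. Between the knockdowns 307 were higher in siDyskerin and 414 lower, against 2.69% and 2.67%, together 5.36%. The lists given here are examples, and members of a gene share reads and follow its level, so they are not separate events. ATF4 and unfolded protein response targets, genes of the amino acid and folding stress responses, had 31 members in 10 genes. Of these members 6 were higher and 0 lower after siDyskerin and 0 and 12 after siGAR1, and 13 were higher in siDyskerin than in siGAR1. Of 106 members in 18 genes of tRNA synthetases, many of them ATF4 targets, 6 were higher and 0 lower after siDyskerin. After siGAR1 the counts were 3 and 4, and 10 were higher in siDyskerin than in siGAR1. Of 113 members in 17 genes of speckle proteins, 0 were higher and 5 lower after siDyskerin, 7 and 0 after siGAR1, and 10 lower in siDyskerin than in siGAR1. Of 44 members in 7 genes with regulated detained introns, 0 were higher and 1 lower after siDyskerin, and 7 and 0 after siGAR1. After siGAR1, 4 of 80 members of hnRNP proteins were higher and 0 lower, and 3 and 7 of 148 members of translation factors. After siDyskerin, 0 of 171 members of cytosolic ribosomal proteins were higher and 6 lower.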

How the data were processed

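RNA of the nuclear fraction was measured in 9 libraries, 3 biological replicates of each of siControl, siDyskerin and siGAR1. Per the methods of the study, reads went through FastQC 0.11.9 and were trimmed by the authors in Trim Galore 0.6.4, who then removed ribosomal and transfer RNA with Bowtie2 2.4.1, aligned the rest with STAR 2.7.0e and quantified transcripts of GENCODE 27 with Salmon 1.2.0 for stranded pairs, with corrections for sequence and position bias. The deposited tables give, per transcript and library, an estimated count of reads and TPM, which the authors' software derived from the estimated counts and effective lengths. The estimated counts were rounded to whole numbers for the tests, and nearly all were whole as deposited. Reads of transcripts not matched to GENCODE 44 (GRCh38) made up 3.69 to 3.84% of a library and were left out. Transcript types, positions and introns came from GENCODE 44, and lengths were equal in both releases for 16649 members.

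Shares were compared with exact two-sided permutation tests over libraries. Usage was tested with edgeR 4.0.16 (diffSpliceDGE, quasi-likelihood) on reads summed per gene and transcript type and on single transcripts, and level with the edgeR quasi-likelihood test, in 1 fit over all 9 libraries without covariates, in R 4.3.3. P-values were adjusted over all features tested (Benjamini-Hochberg), with calls at 0.01 and, for level, an absolute log2 change above 1. They measure the spread between replicate libraries of 1 experiment. The scripts were tested on simulated counts drawn separately for each pair of gene and type, with no reads shared between them. That simulation cannot show how the tests behave where transcripts share reads. The usage test was sparing here: among member genes 0.616, 0.844 and 0.616% had an unadjusted p under 0.05 in the 3 comparisons. This is well below the rate of 0.05 expected with no change, so a gene that did not pass is not shown to be unchanged. In a limma fit on ratios of the retained-intron reads of a member gene to its other reads, 5.88, 9.48 and 8.51% had an unadjusted p under 0.05. Over all pairs of gene and type these were 6.26, 8.94 and 8.27%, and 1, 1 and 2 member genes were called at 0.01 adjusted. Alternatives were limma 3.58.1, DESeq2 1.42.0, other filters, a replicate block, fits of 2 groups and leaving out each library. Counting intervals were not used, since counts of several transcripts share reads.

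Members and gene lists were chosen with earlier results of these data known. Genes were named by a rule: genes called, the 3 genes of a list with the smallest p, the complex and a set of splicing and detained-intron genes, the genes with the highest shares or the most reads, members at the minimum, and the 5 called transcripts per direction with the smallest p. Other named genes are said to be chosen after their values were seen.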

Additional observations from a re-analysis of the deposited data

Results flagged for a closer look

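The usage of retained-intron transcripts passed a direct test between the knockdowns (siDyskerin minus siGAR1, edgeR, log2) in CHSY1 (-1.67), ZNF451 (-0.49), CHSY1-205 (-1.67), ZNF451-207 (-0.46) and DKC1-207 (0.61). CHSY1-205 is the only member of CHSY1, so both values rest on its reads, that of CHSY1 with any retained-intron transcripts under the minimum added. CHSY1-205 passed the minimum of 20 reads only through siGAR1 (16.8 without it), so these values are a description and no test. ZNF451-207 is 1 of the 3 members of ZNF451. DKC1 itself is the target of the siDyskerin knockdown. No explanation was tested.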

How the results depend on the processing

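The class share after siDyskerin reversed to -0.102 points when reads were pooled over genes, and that after siGAR1 moved to 0.0334 points; the cause was not tested. Without single libraries the class differences ranged from 0.0108 to 0.0614 points after siDyskerin, from 0.147 to 0.221 after siGAR1 and from -0.177 to -0.103 between the knockdowns. Genes with changed usage between the knockdowns numbered 1 in place of 2 with members of at least 100 reads and with limma voom, and 0 to 2 without single libraries (0 without siDyskerin replicate 1 or 2 or siGAR1 replicate 1 or 3), while each knockdown against siControl kept 1. Transcripts with changed usage after siDyskerin (3) became 7 with snoRNA overlaps kept, 5 in a fit of 2 groups and 1 with limma on read ratios, and 1 to 5 without single libraries (1 without siDyskerin replicate 1, 5 without siGAR1 replicate 3). After siGAR1 (6) they became 3 with members of at least 100 reads, 11 with limma voom, 3 with limma on read ratios and 2 to 6 without single libraries. Between the knockdowns (3) they became 8 with limma voom, 7 with snoRNA overlaps kept and 1 to 4 without single libraries. The limma fit on read ratios was chosen after seeing the data. The usage counts with members of at least 100 reads recount the main fit without members of fewer reads, so they are no new test. Members with changed level without the fold threshold numbered 829, 523 and 721 in the 3 comparisons, in place of 54, 11 and 41. DESeq2 called 6 after siGAR1 and 17 between the knockdowns, all among those called by edgeR, and without single libraries the counts were 47 to 62, 10 to 21 (21 without siGAR1 replicate 3) and 29 to 56. The called members changed more than the counts: of the 54 after siDyskerin, 40 stayed without siControl replicate 1 and 35 without siDyskerin replicate 2. The split after siDyskerin, 23 higher and 31 lower, turned to 36 and 22 without siControl replicate 1. It was 27 and 20 without siDyskerin replicate 2.

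Replicate numbers gave no pairing that held over all 3 groups. In their deviations from the group means, libraries of the same number correlated by -0.0862 to 0.196. Between siControl and siDyskerin each library correlated best with its own number (0.196, 0.117 and 0.0599). In the pairs with siGAR1 not every library did. With a replicate block, 1 gene was called between the knockdowns in place of 2, since the ZNF451 call was lost, as was that of CBX6-203 after siGAR1 (adjusted p = 0.0115). Members near the minimum of 20 reads, such as CHSY1-205, limit what depth can show.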
